A study of Mus musculus with 16 samples.

Results

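The 9 genes described here encode the amyloid precursor protein and its relatives, the proteases that cut them, and tau. The precursor family is *App*, *Aplp1* and *Aplp2*. The proteases and their subunits are *Adam10*, *Bace1*, *Bace2*, *Psen2* and *Ncstn*, and tau is encoded by *Mapt*. The genes were chosen by symbol from the 48397 gene symbols counted in every library. All 9 were found and all 9 passed the filter on low counts that left 17038 genes for testing.

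The amyloid precursor protein is a membrane protein of neurons that is cut in alternative ways. Cleavage by an α-secretase such as Adam10 within the amyloid-β segment releases a soluble ectodomain, whereas cleavage by the β-secretase Bace1 followed by γ-secretase releases amyloid-β, the peptide of the plaques of Alzheimer's disease. γ-Secretase is a complex of a catalytic subunit such as Psen2, nicastrin (Ncstn), an Aph1 protein and Psenen. Aplp1 and Aplp2 are cut by the same enzymes but contain no amyloid-β, Bace2 is a relative of Bace1 that is abundant outside neurons, and tau binds axonal microtubules and forms the tangles of Alzheimer's disease. ApoE4 is the human apoE isoform with the highest risk of that disease and apoE2 the one with the lowest, which is why the levels of these genes under the isoforms are of interest.

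Wild-type primary hippocampal neurons were prepared from 0 to 2 day old CD1 mouse pups, and their RNA gave 16 libraries, 4 under each of 4 media. The apoE2, apoE3 and apoE4 neurons received medium conditioned by immortalized astrocytes of *APOE* targeted replacement mice homozygous for human ε2, ε3 or ε4, and the control neurons received medium conditioned by *Apoe*-/- astrocytes. The medium was concentrated 10-fold and given at 10 and 13 days in vitro (DIV), and RNA was collected at 17 DIV. All cultures, the controls included, were treated with cytosine arabinoside at 3 DIV, which limits the growth of dividing non-neuronal cells. The control medium lacks apoE, the cultured CD1 cells, neurons and the astrocytes among them, keep their own mouse *Apoe*, and each medium comes from an immortalized line rather than from primary astrocytes. The depth on genes was 14087723 to 34248172 reads (median 22221832), of which the 9 genes held 0.244 to 0.379% of them. All 12 neuronal markers were above 0 in every library, with a sum of 3273 to 8832 counts per 1000000 gene counts after scaling (CPM). All 8 astrocyte markers were above 0 as well, with a sum of 529 to 6121 CPM, so the cultures were not free of astrocytes. Markers of microglia, the oligodendrocyte lineage, vascular cells and dividing cells summed to at most 81.2, 730.3, 283 and 40.6 CPM. Each library has a replicate number (1 to 4). Libraries of number 2, of number 3 and of number 4 resembled those of their own number whatever the medium. Those of number 1 resembled one another no more than some libraries of unlike numbers did. Values from a fit with the replicate number as a block are given where they change a call.

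Promoters are shown for the 3 precursor genes, whose levels under the media are compared below, and for *Ncstn*, the gene whose apoE4 and control libraries did not overlap. Each is the RefSeq window from 250 bases before to 50 bases after the annotated start on GRCm38.p6, written 5′ to 3′ along the gene, with GC boxes (GGGCGG on either strand) in capitals.
App, chr16:85173658-85173957, minus strand: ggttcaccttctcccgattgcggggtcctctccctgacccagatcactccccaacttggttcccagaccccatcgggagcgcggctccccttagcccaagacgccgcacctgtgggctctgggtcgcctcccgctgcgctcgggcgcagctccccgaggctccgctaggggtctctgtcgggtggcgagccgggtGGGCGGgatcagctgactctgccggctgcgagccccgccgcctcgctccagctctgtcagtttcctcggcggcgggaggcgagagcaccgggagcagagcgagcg
Aplp1, chr7:30445533-30445832, minus strand: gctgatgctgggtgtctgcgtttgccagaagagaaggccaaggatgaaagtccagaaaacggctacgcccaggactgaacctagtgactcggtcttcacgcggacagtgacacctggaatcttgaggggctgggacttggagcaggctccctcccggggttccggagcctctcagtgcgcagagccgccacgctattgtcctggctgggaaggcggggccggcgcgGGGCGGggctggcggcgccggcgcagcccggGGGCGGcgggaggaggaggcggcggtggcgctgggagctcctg
Aplp2, chr9:31211799-31212098, minus strand: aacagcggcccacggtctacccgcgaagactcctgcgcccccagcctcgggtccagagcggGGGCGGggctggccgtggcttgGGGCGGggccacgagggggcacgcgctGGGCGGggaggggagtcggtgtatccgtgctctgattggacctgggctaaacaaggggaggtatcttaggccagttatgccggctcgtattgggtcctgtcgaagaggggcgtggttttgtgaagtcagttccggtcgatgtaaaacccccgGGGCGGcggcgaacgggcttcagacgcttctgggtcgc
Ncstn, chr1:172082700-172082999, minus strand: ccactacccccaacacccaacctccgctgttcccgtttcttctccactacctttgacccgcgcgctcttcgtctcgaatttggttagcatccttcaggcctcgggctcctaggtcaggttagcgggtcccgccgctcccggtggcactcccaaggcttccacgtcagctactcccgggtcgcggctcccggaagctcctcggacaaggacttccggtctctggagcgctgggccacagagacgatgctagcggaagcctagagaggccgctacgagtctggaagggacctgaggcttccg

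The promoters of the precursor genes were rich in G and C, and so were those of *Ncstn* and *Adam10*. GC content was 71% for *App*, 68.7% for *Aplp1*, 67% for *Aplp2* and 63.3% for *Ncstn*. It was 73.3% for *Adam10* and 65.7 and 47.7% for the 2 windows of *Psen2*. The median was 52.7% over 32851 promoter windows of the same length. *App* held 1 GC box, *Aplp1* 2 and *Aplp2* 4, whereas *Ncstn* held 0 in this window, and 35.7% of all windows held at least 1. The window of *Adam10* contained 3 GC boxes, of which 2 overlap by a G, and CCAAT, searched on both strands, was found 2 times each in *Adam10* and *Aplp2* and in none of the other windows. The 2 windows of *Psen2* held 4 and 0 GC boxes. TATAAA, searched on both strands, was in none of these 7 windows and in 13.6% of all, and CCAAT was in 37.4% of all.

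The level of each gene in control neurons, per kilobase of its merged exons, placed the 3 precursor genes and tau far above the proteases. *Aplp1* was at 164 ± 34.0 CPM per kb (SD, n = 4), *Aplp2* at 114 ± 19.4 and *App* at 99.7 ± 15.95, followed by *Mapt* at 70.4 ± 9.59. These 4 genes lay at the 99.3rd, 98.7th, 98.4th and 97.5th percentile of 16492 tested genes with a length. *Bace1* was at 24.2 ± 4.30, *Ncstn* at 10.5 ± 0.356, *Adam10* at 10.2 ± 0.726, *Psen2* at 4.59 ± 0.608 and *Bace2* at 3.48 ± 1.38 CPM per kb. In that order *Aplp2* and *App*, *Ncstn* and *Adam10*, and *Psen2* and *Bace2* were neighbours whose means differed by less than the larger SD of the pair. The order at the top depends on which exons are counted as the gene's length. With the length of the principal transcript alone, *App* came first with 408 CPM per kb, then *Mapt* with 389, *Aplp1* with 211 and *Aplp2* with 185, while the order from *Bace1* to *Bace2* stayed the same. The counts in these values still covered all merged exons. The principal transcript held 3176 of 12996 exonic bases for *App* and 1362 of 7531 for *Mapt*. For *Aplp1* it held 2343 of 3017 and for *Aplp2* 3634 of 5875, so the values of *App* and *Mapt* rose the most. *Bace1* carries a further reservation, since 32.5% of its exonic bases (chr9:45838580-45864399, plus strand, mm10) overlap exons of *Rnf214* and of 2 other annotated genes on the other strand. Whether the counting used the strand is not stated, and *Rnf214* itself had 503 to 1642 counts per library.

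**Figure D1:**
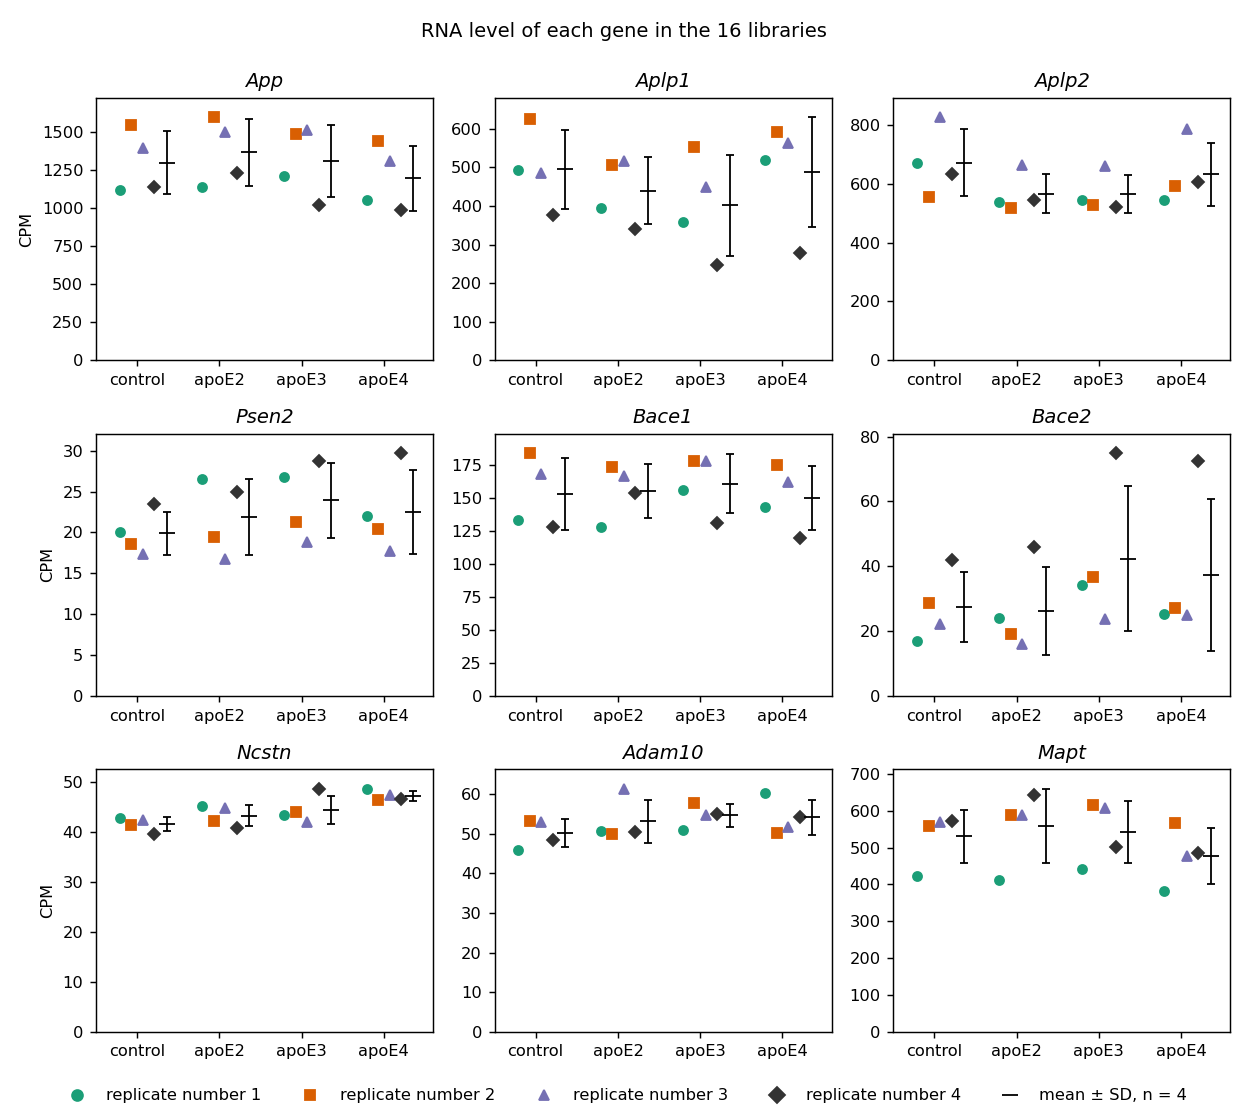
RNA level of each gene (CPM, vertical axes from 0) in the 4 libraries of each medium, with the shape and colour of a point giving its replicate number and the bar to the right the mean ± SD (n = 4). For *Aplp1* the number 4 library lies lowest in every medium and for *Bace2* it lies highest, while *Ncstn* stays within 39.6 and 48.7 CPM throughout.

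The first question is whether a medium with apoE changed any of these genes compared to control medium. None of the 9 passed edgeR's quasi-likelihood test at an adjusted p under 0.05. The counts were 0 of 9 for apoE2 versus control, where 0% of all tested genes passed, 0 of 9 for apoE3 versus control (0.00587% of all), and 0 of 9 for apoE4 versus control (0.194% of all). Between isoforms they were 0 of 9 for apoE4 versus apoE3 (0.147% of all), 0 of 9 for apoE4 versus apoE2 (0.252% of all) and 0 of 9 for apoE3 versus apoE2 (0% of all). A single test for any difference among the 4 media also called 0 of 9, with 0.229% of all genes called. At an unadjusted p under 0.05, 1 member passed in 1 comparison, *Ncstn* in apoE4 versus control, beside 3.3% of all genes there and 2.28 to 6.43% in the other 5 comparisons. DESeq2 without the block likewise called 0 members in all 7 tests. So low a background leaves little to read from these zeros about the 9 genes in particular.

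The study called genes by a change of at least 2-fold with an unadjusted p under 0.05 from a test of each gene alone. The same cut-offs, applied here to the p-values of edgeR without the block, were met by 0 of 9 members in every comparison. Over all tested genes they were met by 0.722% for apoE2, 1.96% for apoE3 and 1.15% for apoE4 versus control, and by 1.25% for apoE4 versus apoE3, 1.3% for apoE4 versus apoE2 and 0.687% for apoE3 versus apoE2. The median log2 fold change of the 9 genes was 0.06 for apoE2, 0.07 for apoE3 and −0.02 for apoE4 versus control, beside 0.01, 0.02 and 0.00 over all tested genes.

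With the replicate number as a block the counts of members called were 0 of 9 for apoE2 versus control (1.73% of all tested genes called), 1 of 9 for apoE3 versus control (11.7% of all) and 0 of 9 for apoE4 versus control (3.3% of all). They were 0 of 9 for apoE4 versus apoE3 (1.76% of all), 0 of 9 for apoE4 versus apoE2 (4.44% of all) and 1 of 9 for apoE3 versus apoE2 (1.31% of all), and 1 of 9 for any difference among the media (10.7% of all). The member called was *Bace2* in each case. At an unadjusted p under 0.05 the blocked fit passed 1, 4, 2, 2, 3 and 1 members in these 6 comparisons in the order given, beside 13.3, 27.5, 16.6, 16.3, 18 and 15.9% of all tested genes, so the members' share was below that of all genes in 2 comparisons and above it in 4, by at most 2 members. DESeq2 with the block called more, namely *Aplp2* for apoE2 versus control, *Aplp1*, *Aplp2* and *Bace2* for apoE3 versus control, *App* and *Bace2* for apoE4 versus apoE2, and *Bace2* for apoE3 versus apoE2. In these 4 comparisons that fit called 702, 2638, 1189 and 682 genes in all. Comparisons with the control share its 4 libraries and are not independent of each other.

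**Figure D2:**
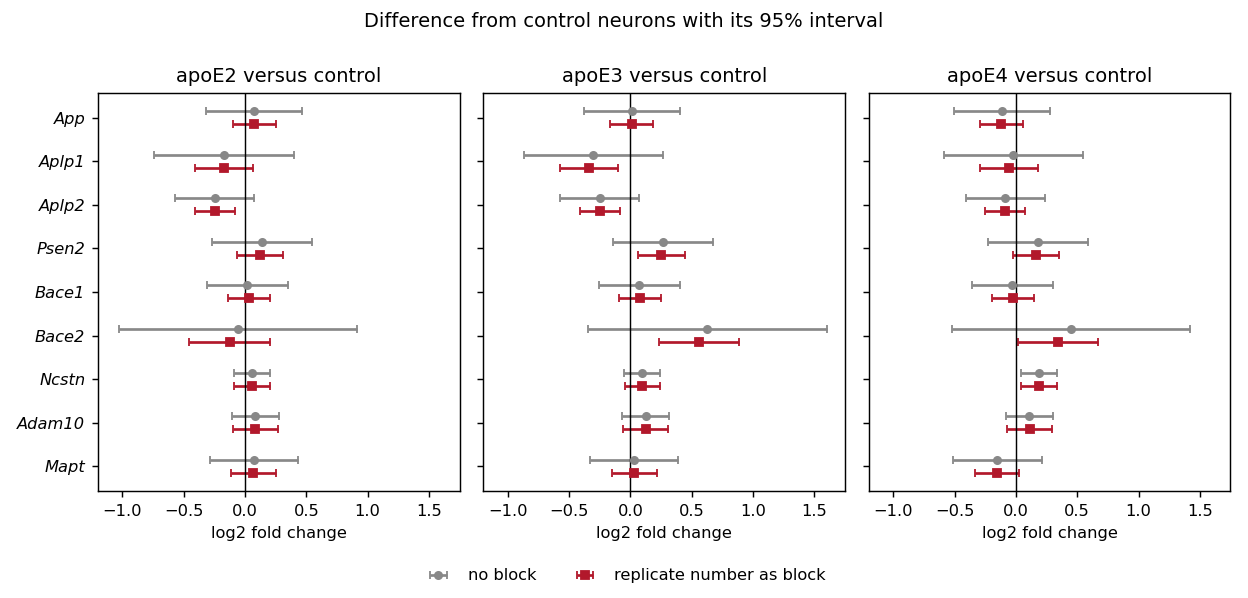
Log2 fold change of each gene versus control neurons with its 95% interval, from edgeR without the block (grey circles) and with the replicate number as a block (red squares). Without the block the interval excludes 0 for *Ncstn* with apoE4 only; with it, the interval of *Bace2* with apoE3 runs from 0.23 to 0.88.

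*App* itself (chr16:84949685-85173766, minus strand, mm10) averaged 1295 ± 207 CPM in control neurons (SD, n = 4), 1363 ± 217 with apoE2, 1306 ± 235 with apoE3 and 1195 ± 213 with apoE4. In order of replicate number it was at 1114, 1541, 1393 and 1133 CPM in control neurons and at 1134, 1594, 1496 and 1229 CPM with apoE2. With apoE3 it was at 1210, 1482, 1512 and 1019 CPM, and with apoE4 at 1051, 1439, 1304 and 985 CPM. The 4 media overlapped fully, and within each medium the libraries of numbers 2 and 3 were the highest. The log2 fold change without the block was 0.07 for apoE2, 0.01 for apoE3 and −0.12 (SE 0.18, adjusted p = 1 by edgeR) for apoE4 versus control. The value for apoE4 was −0.22 without the apoE4 library of number 2 and −0.02 without the control library of number 2. The apoE2 library was above the control library in 4 of 4 replicate numbers, by 0.03 to 0.12 on the log2 scale. The apoE4 library was the lower one in 4 of 4 replicate numbers against the control, against apoE3 and against apoE2, comparisons that share the apoE4 libraries. The largest of these differences, −0.19 against apoE2, had an adjusted p of 0.223 in edgeR's blocked fit and of 0.0466 in DESeq2 with the block.

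*Aplp2*, the relative that is expressed in most tissues, averaged 672 ± 114 CPM in control neurons, 565 ± 66.4 with apoE2, 564 ± 64.5 with apoE3 and 633 ± 107 with apoE4. In order of replicate number it was at 672, 556, 826 and 633 CPM in control neurons, at 537, 516, 663 and 545 CPM with apoE2 and at 546, 528, 659 and 522 CPM with apoE3. With apoE4 it was at 544, 592, 788 and 606 CPM. Both apoE2 and apoE3 libraries lay below the control library of the same number in 4 of 4 cases, while the groups as a whole overlapped. The log2 fold change was −0.25 (SE 0.15) for apoE2 and −0.25 (SE 0.15) for apoE3, with adjusted p-values of 1 and 0.803 without the block. Leaving out 1 library in that fit gave −0.35 to −0.13 for apoE2 and −0.34 to −0.14 for apoE3. The values nearest 0 were those without the control library of number 3. The blocked fit gave −0.24 (SE 0.08, adjusted p = 0.136) for apoE2 and −0.25 (SE 0.08, adjusted p = 0.0503) for apoE3, short of the threshold, whereas DESeq2 with the block gave adjusted p-values of 0.0157 and 0.0027.

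*Aplp1*, the family member restricted to neurons, varied more than its relatives, with a 2.54-fold range over the 16 libraries against 1.62-fold for *App* and 1.60-fold for *Aplp2*. In order of replicate number it was at 492, 627, 485 and 376 CPM in control neurons, at 396, 507, 517 and 340 CPM with apoE2, at 357, 553, 449 and 247 CPM with apoE3 and at 520, 591, 562 and 279 CPM with apoE4. The group means were 495 ± 103, 439.9 ± 86.5, 401 ± 130.5 and 488 ± 142 CPM. The apoE3 library was below its control in 4 of 4 replicate numbers and the apoE2 library in 3 of 4. For apoE3 versus control the blocked fit gave −0.34 (SE 0.11, adjusted p = 0.0594) and DESeq2 with the block −0.36 (adjusted p = 0.0226). Bulk RNA cannot tell fewer neurons in a culture from less *Aplp1* RNA per neuron. For apoE3 versus control the summed neuronal markers averaged 6557.5 CPM in control neurons and 5846 CPM with apoE3, and without the block 10 of the 12 had log2 fold changes below 0 (median −0.21). With the block 4 of 12 were called, *Snap25* and *Gad1* lower and *Tubb3* and *Slc17a6*, the only 2 of the 12 with values above 0, higher. By replicate number the mean sum was 4209 CPM for number 4 and 5649.5 CPM for number 1, where *Aplp1* averaged 310.5 and 441 CPM, and 7618 CPM for number 2 and 8082 CPM for number 3, where it averaged 569 and 504 CPM. The part of neuronal content in the difference was not tested.

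The share of *App* in the RNA of its family shows how the 3 genes moved against each other within a library. By counts, *App* made up 48.9 to 56.6% of *App*, *Aplp1* and *Aplp2* together in control neurons (52.5 ± 3.19%, SD, n = 4) and 49.1 to 54.9% with apoE4 (51.6 ± 2.68%). It made up 54.9 to 60.9% with apoE2 (57.5 ± 2.67%) and 57.0 to 57.8% with apoE3 (57.4 ± 0.386%). The share was higher with apoE2 and with apoE3 than in the control library of the same number in 4 of 4 cases each, and lower with apoE4 than with apoE2 or apoE3 in 4 of 4 cases each. The apoE3 libraries lay above all 4 control and all 4 apoE4 libraries, and the control library of number 2 overlapped with apoE2. Weighted by kilobase of exon the shares were 23.6 to 28.2% in control, 28.2 to 32.4% with apoE2, 29.5 to 31.5% with apoE3 and 23.4 to 27.9% with apoE4. With principal transcript lengths they were 47.0 to 53.6%, 53.0 to 58.3%, 55.0 to 56.3% and 47.1 to 52.2%. This quotient was worked out after the levels had been seen and carries no test.

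**Figure D3:**
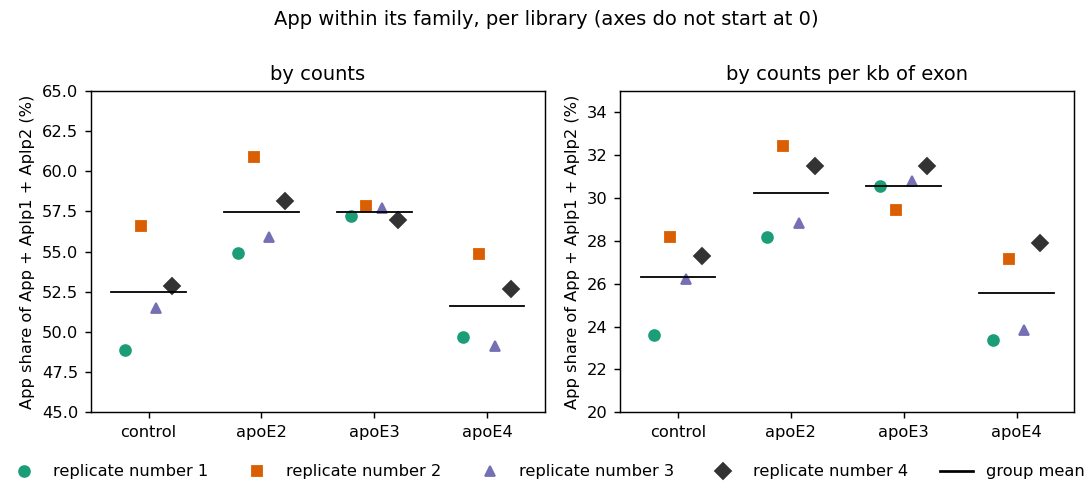
Share of *App* in the summed RNA of *App*, *Aplp1* and *Aplp2* (%, axes not from 0) in each library, by counts on the left and by counts per kb of exon on the right, with shape and colour for the replicate number and a line at the group mean. The 4 apoE3 libraries lie between 57.0 and 57.8% by counts, above every control and apoE4 library.

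Among the enzymes that make the first cut, *Adam10*, the main α-secretase of neurons (chr9:70678997-70780229, plus strand), was steady. It ranged from 45.9 to 53.2 CPM in control neurons, from 49.9 to 61.3 with apoE2, from 51.0 to 57.8 with apoE3 and from 50.3 to 60.4 with apoE4. The means were 50.1 ± 3.57, 53.1 ± 5.49, 54.6 ± 2.80 and 54.1 ± 4.47 CPM, and the media overlapped in every comparison. For apoE3 versus control the log2 fold change was 0.12 with an interval from −0.07 to 0.32.

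*Bace1*, the β-secretase, differed little between media. The means were 154 ± 27.3 CPM in control neurons, 156 ± 20.2 with apoE2, 161 ± 22.4 with apoE3 and 150.4 ± 24.1 with apoE4, with all 16 libraries within a 1.53-fold range. The log2 fold change for apoE4 versus control was −0.03 with an interval from −0.36 to 0.30. Per kilobase *Bace1* was 1.72 to 2.70 times as abundant as *Adam10* in every library. How reads in exons shared with the overlapping genes were counted is not known, and their effect on this ratio was not tested.

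*Bace2* (chr16:97356742-97442936, plus strand) showed the widest range of the 9 genes, 4.67-fold over the 16 libraries. In order of replicate number it was at 16.8, 28.8, 22.1 and 42.0 CPM in control neurons and at 24.1, 19.0, 16.05 and 46.0 CPM with apoE2. With apoE3 it was at 34.1, 36.7, 23.7 and 74.9 CPM and with apoE4 at 25.1, 27.0, 24.9 and 72.5 CPM. The group means were 27.4 ± 10.9, 26.3 ± 13.5, 42.4 ± 22.4 and 37.4 ± 23.4 CPM. The number 4 library was the highest in each medium, and every pair of media overlapped. Without the block the log2 fold change was −0.06 (SE 0.45) for apoE2, 0.63 (SE 0.46, adjusted p = 0.808) for apoE3 and 0.45 (SE 0.46) for apoE4 versus control. Without the apoE3 library of number 4 the value for apoE3 was 0.20 and without the control library of number 4 it was 0.91, and that for apoE4 became −0.09 once the apoE4 library of number 4 was left out.

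With the replicate number as a block, *Bace2* was higher with apoE3 than in control neurons by 0.56 on the log2 scale (SE 0.15, adjusted p = 0.0299), a fold change of 1.47 with a 95% interval from 1.17 to 1.84. It was higher with apoE3 than with apoE2 by 0.68 (SE 0.15, adjusted p = 0.0429), a fold change of 1.60 with an interval from 1.28 to 2.01. In both comparisons the apoE3 library was the higher one in 4 of 4 replicate numbers, by 0.10 to 1.02 and by 0.50 to 0.95 on the log2 scale. The difference of apoE4 from control was 0.35 (adjusted p = 0.269) and that of apoE4 from apoE3 was −0.21 with an interval from −0.53 to 0.11. That of apoE4 from apoE2 was 0.47 in the same edgeR fit (interval 0.14 to 0.80, adjusted p = 0.107). There the apoE4 library was the higher one in 4 of 4 replicate numbers. The call for apoE3 versus control was kept when the 4 libraries of number 2 (0.61) or number 3 (0.71) were left out and lost without those of number 1 (0.42, adjusted p = 0.171) or number 4 (0.46, adjusted p = 0.116). Among single libraries it was lost without control 1, control 4, apoE3 1, apoE3 2 or apoE3 4, with values of 0.42 to 0.69 over all 16 omissions. The call for apoE3 versus apoE2 was lost without the libraries of any 1 number and without any of 10 of the 16 single libraries. These were apoE2 2, 3 and 4, all of apoE3, and apoE4 1, 2 and 3. The difference itself stayed between 0.59 and 0.81 over the 16 omissions and between 0.59 and 0.74 without 1 number, with adjusted p-values of 0.0224 to 0.154.

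Astrocyte RNA moved in the same comparison. The sum of 8 astrocyte markers, *Gfap* among them, ran from 529 to 2595 CPM in control neurons, from 748 to 2635 with apoE2, from 817 to 6121 with apoE3 and from 715 to 4807 with apoE4. With the block, 8 of 8 markers passed the test as higher in apoE3 versus control, 4 of 8 in apoE4 versus control and 0 of 8 in apoE2 versus control and in apoE3 versus apoE2. In the last of these, where *Bace2* was also called, all 8 markers had values above 0 without the block (median log2 fold change 0.57, from 0.50 to 0.98), and the marker sum was higher with apoE3 in 4 of 4 replicate numbers, by 0.13 to 1.29 on the log2 scale. Without the block 0 of 8 passed in any comparison by edgeR or DESeq2, and 0 of 8 had an unadjusted p under 0.05. Against the control library of the same number, the apoE3 libraries of numbers 1 and 4 had the largest excess both of the marker sum (1.54 and 1.24 on the log2 scale) and of *Bace2* (1.02 and 0.83). For apoE4 versus control, too, the excess of the marker sum (0.96, 0.44, 0.70 and 0.89 in order of number) and of *Bace2* (0.58, −0.09, 0.17 and 0.79) was larger in numbers 1 and 4 than in numbers 2 and 3. For apoE2 versus control the marker sum differed by 0.99, 0.50, 0.45 and −0.05 and *Bace2* by 0.52, −0.60, −0.46 and 0.13. For apoE4 versus apoE2 the marker sum differed by −0.02, −0.07, 0.25 and 0.94 and *Bace2* by 0.06, 0.51, 0.63 and 0.66. In number 2 *Bace2* was higher with apoE3 than with apoE2 by 0.95 while the marker sum differed by 0.13, and the libraries of number 2, with the lowest marker sums (529 to 817 CPM), had as much *Bace2* (19.0 to 36.7 CPM) as those of number 3 (16.05 to 24.9 CPM), with marker sums of 1402 to 2415 CPM. Markers of the oligodendrocyte lineage were also higher with apoE3 in 3 of 8 cases with the block, with sums of 97.9 to 415 CPM in control neurons and 124 to 730.3 CPM with apoE3. Of 7 vascular and fibroblast markers 1, *Col3a1*, was called higher in that comparison with the block, and 6 of 7 had values above 0 (median 0.82 without the block). Of 5 markers of dividing cells 1, *Top2a*, was called higher (2.58, adjusted p = 0.000559), with sums of 7.20 to 17.9 CPM in control neurons and 26.2 to 40.6 CPM with apoE3. The part of these cells in the *Bace2* difference was not tested.

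**Figure D4:**
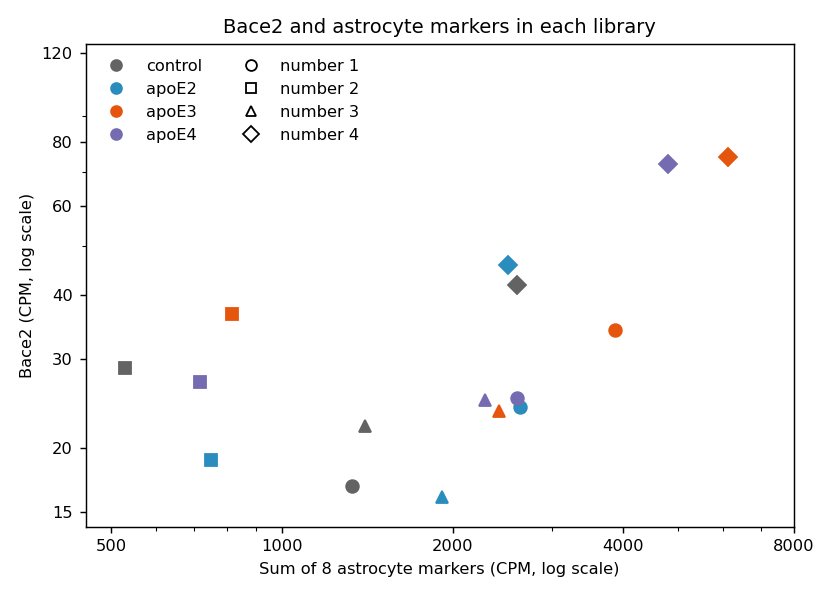
*Bace2* (CPM, log scale) against the summed CPM of 8 astrocyte markers (log scale) in the 16 libraries, with colour for the medium and shape for the replicate number. The apoE3 and apoE4 libraries of number 4 lie highest on both axes, at 74.9 and 72.5 CPM of *Bace2*.

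γ-Secretase makes the final cut. *Ncstn*, its substrate receptor (chr1:172066013-172082795, minus strand), was the only member whose libraries separated by medium. In order of replicate number it was at 42.8, 41.4, 42.4 and 39.6 CPM in control neurons, at 45.2, 42.3, 44.9 and 40.8 CPM with apoE2, at 43.5, 43.95, 42.0 and 48.6 CPM with apoE3 and at 48.7, 46.5, 47.5 and 46.7 CPM with apoE4. All 4 apoE4 libraries lay above all 4 control and all 4 apoE2 libraries, with apoE3 overlapping both sides. The means were 41.6 ± 1.42 CPM in control neurons, 43.3 ± 2.11 with apoE2, 44.5 ± 2.84 with apoE3 and 47.3 ± 1.00 with apoE4. The log2 fold change for apoE4 versus control was 0.19 (SE 0.07, 95% interval 0.04 to 0.33), with an unadjusted p of 0.0162 and an adjusted p of 1 by edgeR's quasi-likelihood test, and an adjusted p of 0.181 with the block. For apoE4 versus apoE2 it was 0.13 with an interval from −0.02 to 0.27. Leaving out any 1 library kept the apoE4 difference from control between 0.16 and 0.20. Exons of *Copa*, on the other strand, overlap 4.91% of the exonic bases of *Ncstn*, and *Copa* had 3540 to 10332 counts per library.

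Groups that do not overlap were not rare among all genes. For apoE4 versus control 1 of 9 members did not overlap, beside 1.91% of all tested genes, and for apoE4 versus apoE2 1 of 9, beside 3.4%. The other comparisons had 0 of 9 members, beside 2.19% for apoE2 versus control, 2.59% for apoE3 versus control, 2.45% for apoE4 versus apoE3 and 1.66% for apoE3 versus apoE2.

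*Psen2*, a catalytic subunit of the complex (chr1:180227004-180263438, minus strand), was higher with apoE3 than in control in 4 of 4 replicate numbers. In order of replicate number it was at 20.1, 18.6, 17.3 and 23.5 CPM in control neurons and at 26.8, 21.2, 18.9 and 28.7 CPM with apoE3. It averaged 19.9 ± 2.64 and 23.9 ± 4.63 CPM in these media, 21.9 ± 4.59 with apoE2 and 22.5 ± 5.13 with apoE4, and every pair of media overlapped. For apoE3 versus control the blocked fit gave 0.25 (SE 0.09, adjusted p = 0.0812), which misses the threshold. *Psen2* was also higher in 4 of 4 replicate numbers for apoE4 versus control (0.13, 0.13, 0.03 and 0.34 on the log2 scale) and for apoE3 versus apoE2 (0.02 to 0.20), with adjusted p-values of 0.384 and 0.498 in the blocked fit. For apoE3 versus control the excess of *Psen2* was largest in numbers 1 and 4 (0.41 and 0.29), the numbers in which the astrocyte marker sum had its largest excess (1.54 and 1.24), and the part of astrocyte RNA in it was not tested. Of the other subunits, *Aph1a*, *Aph1b*, *Aph1c* and *Psenen* each passed in 0 of 6 comparisons in either edgeR fit. Among them *Aph1c* had the lowest value for apoE3 versus control (−0.35, adjusted p = 0.806) and *Psenen* the highest (0.26, adjusted p = 0.81). Per kilobase *Ncstn* exceeded *Psen2* by 1.71 to 2.93 times in all 16 libraries.

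*Mapt* (chr11:104231390-104332090, plus strand), which encodes tau, was at 422, 557, 569 and 572 CPM in control neurons in order of replicate number and at 381, 567, 477 and 484 CPM with apoE4. It ranged from 412 to 643 CPM with apoE2 and from 443 to 614 CPM with apoE3. The means were 530.2 ± 72.2 CPM in control neurons, 558 ± 101 with apoE2, 541 ± 83.7 with apoE3 and 477 ± 76.0 with apoE4. Number 1 was the lowest library of each medium. The apoE4 library lay below that of apoE2 and of apoE3 in 4 of 4 replicate numbers and below control in 3 of 4. With the block the differences were −0.22 from apoE2 (SE 0.09, adjusted p = 0.176) and −0.18 from apoE3 (SE 0.09, adjusted p = 0.303), both short of the threshold. Relative to *Map2*, the dendritic member of the same protein family, *Mapt* was at 0.189 to 0.435 of its CPM.

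Most of the variation of these genes lay between replicate numbers and not between media. For *App* 84.4% of the sum of squares of log2 CPM lay between numbers and 9.597% between media, and for *Bace1* 79.3% and 3.67%. *Psen2* (77.3%), *Aplp1* (76.9%), *Mapt* (73.6%), *Bace2* (72.9%) and *Aplp2* (64.9%) followed, all above the median of 56.1% over all tested genes. *Ncstn* and *Adam10* stood apart, with 4.47% and 10.8% between numbers. For *Ncstn* 59.97% lay between media, against a median of 14.4% over all genes, and for *Adam10* 69.3% lay in neither. Their total spread was small as well, at the 3.43rd and 9.59th percentile of 7062 genes at least as abundant as the least abundant member, where *Bace2* was at the 94.3rd and *Aplp1* at the 81.1st.

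**Figure D5:**
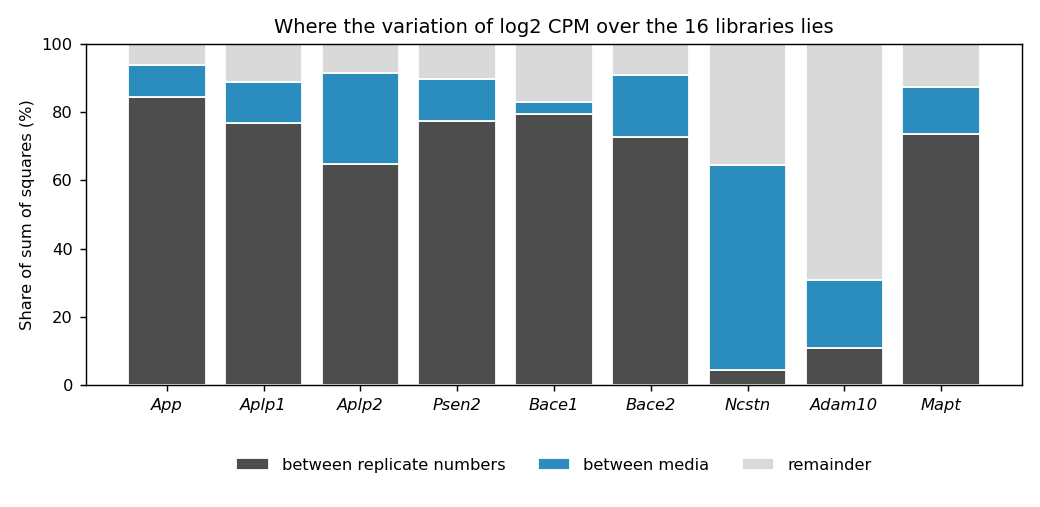
Share of the sum of squares of log2 CPM over the 16 libraries that lies between replicate numbers, between media and in the remainder (%), for each gene. *App* has 84.4% between replicate numbers, and *Ncstn* has 59.97% between media.

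The replicate numbers differed in a gene-specific way. *App* averaged 1514 and 1426 CPM in numbers 2 and 3 against 1127 and 1091.5 CPM in numbers 1 and 4, and *Bace1* followed the same pattern with 178 and 169 against 140.4 and 133 CPM. *Aplp2* was highest in number 3 (734 CPM, the others 548 to 577), *Mapt* lowest in number 1 (415 CPM, the others 549.9 to 582), and *Psen2* was 26.7 CPM in number 4 and 17.7 CPM in number 3. Over the 16 libraries, which share their replicate numbers, log2 CPM of *App* and *Bace1* correlated with r = 0.93, of *Psen2* and *Bace2* with r = 0.79 and of *Aplp1* and *Psen2* with r = −0.84. After the mean of each replicate number was subtracted these values were 0.64, 0.78 and −0.81. Other pairs lost most of their correlation in this step, *App* and *Psen2* (−0.76 to −0.20), *Psen2* and *Bace1* (−0.72 to −0.05), *Aplp1* and *Bace1* (0.71 to −0.01) and *App* and *Aplp1* (0.70 to −0.03). The largest value after it was that of *App* and *Mapt*, at 0.89 where it had been 0.67.

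The genes whose log2 CPM followed each member most closely over the 16 libraries were *Rtn4r*, *Adgrb2* and *Epha6* for *Aplp1* (r = 0.98, 0.98 and 0.97), and *AC149090.1*, *Wdr37* and *Pip4k2b* for *App* (r = 0.97, 0.97 and 0.96). *Klf6*, *Ramp1* and *Panx1* came first for *Bace2* (r = 0.93, 0.91 and 0.91), *Hsp90ab1*, *Jazf1* and *Gap43* for *Mapt* (r = 0.92, 0.91 and 0.87) and *St7*, *Dusp4* and *Bok* for *Aplp2* (r = 0.95, 0.94 and 0.92). *Sowahc*, *Pgd* and *Nek7* were closest to *Psen2* (r = 0.96 each) and *Palmd*, *Itgbl1* and *Ak4* to *Bace1* (r = 0.95 each). The closest genes to *Ncstn* and *Adam10* were *Ern1* (r = 0.86) and *Atp13a3* (r = 0.73). Once the mean of each replicate number had been subtracted, the closest genes were instead *Rasgrf2*, *Arpc5* and *Cdh8* for *App* (r = 0.94, 0.93 and 0.93) and *Rdh10*, *Paqr8* and *Man1a* for *Bace2* (r = 0.91, 0.90 and 0.89). These are descriptions over libraries that share replicate numbers.

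Beyond the 9 members, 111 of 112 other genes of the pathway passed the filter, namely other α-secretases, subunits of γ-secretase, adaptors and sorting proteins of the precursor, enzymes that degrade amyloid-β, secretase substrates, tau kinases and phosphatases and other microtubule-binding proteins. Without the block edgeR called 0 of 111 in each comparison except apoE4 versus apoE2, where it called 1. That gene was *Fam3c*, which encodes a secreted protein that lowers amyloid-β, at 54.6 ± 1.62 CPM with apoE4 and 70.9 ± 3.11 with apoE2 (log2 fold change −0.38, SE 0.07, adjusted p = 0.043), lower with apoE4 in 4 of 4 replicate numbers. At an unadjusted p under 0.05 the numbers were 2, 7 and 4 for apoE2, apoE3 and apoE4 versus control, beside 2.79, 6.43 and 3.3% of all tested genes, and 4, 6 and 0 for apoE4 versus apoE3, apoE4 versus apoE2 and apoE3 versus apoE2, beside 4.7, 5.34 and 2.28%. DESeq2 without the block called *Fam3c* for apoE2 versus control and for apoE4 versus apoE2 and none of the others.

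With the block 16 of 111 pathway genes (14.4%) passed for apoE3 versus control, 11 higher and 5 lower, beside 11.7% of all tested genes. The aspartic protease *Ctsd* was higher by 0.68 (adjusted p = 0.0098) and the cysteine protease *Ctsb* by 0.40 (adjusted p = 0.0459), both lysosomal enzymes that degrade amyloid-β. Of the 16 secretase substrates 4 were higher and 2 lower. The adhesion molecule *Chl1* was higher by 0.72 (adjusted p = 0.00116), the Notch ligand *Jag1* by 1.07 (adjusted p = 0.000734), *Notch1* itself by 1.02 (adjusted p = 0.00296) and *Sez6* by 0.55 (adjusted p = 0.0238), while *Cntnap2* (−0.39, adjusted p = 0.034) and *Epha4* (−0.30, adjusted p = 0.0467) were lower. *Adam9*, a relative of *Adam10*, was higher by 0.22 (adjusted p = 0.0466), and of 27 adaptors *Gsap* (0.89, adjusted p = 0.0194), *Itm2b* (0.38, adjusted p = 0.0292) and *Fam3c* (0.24, adjusted p = 0.0284) were higher and *Clstn1* (−0.33, adjusted p = 0.0238) lower. *Camk2b* (−0.36, adjusted p = 0.0397) was the 1 of 21 tau kinases called, and of the 19 microtubule-binding proteins *Map7* was lower and *Mapre1* higher. The astrocyte markers were higher in the same comparison in 8 of 8 cases, and their part in these calls was not tested.

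In the remaining comparisons the block gave few pathway calls. For apoE2 versus control they were 3 of 111 (2.7%, beside 1.73% of all), *Fam3c* (0.36), *Ppp2r2b*, a regulatory subunit of the phosphatase that acts on tau (0.48), and *Map7* (−0.52). For apoE4 versus control they were 2 of 111 (1.8%, beside 3.3% of all), the adaptor *Apbb2* (0.29, adjusted p = 0.0481) and *Mapre1* (0.36). *Apbb2*, which binds the cytoplasmic tail of the precursor, was also higher with apoE4 than with apoE3 (0.34, adjusted p = 0.0379) and apoE2 (0.40, adjusted p = 0.00724), each time in 4 of 4 replicate numbers. Against apoE2 the apoE4 neurons further differed in *Sorcs1* (0.78), *Adam9* (−0.25), *Fam3c* (−0.38) and *Ppp2r2b* (−0.55), 5 of 111 in all (4.5%, beside 4.44% of all), and against apoE3 in *Jag1* (−0.76), 2 of 111 in all (1.8%, beside 1.76% of all). For apoE3 versus apoE2 the blocked fit called 0 of 111.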

How the data were processed

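Raw counts per gene were deposited. Per the study's methods the authors had aligned reads of rRNA-depleted RNA to mm10 with STAR and assigned them to genes with HTSeq, and neither the annotation nor the strand setting is given in the sources used here. HTSeq left 38.4 to 73.7% of a library's reads without a single gene, and these were not used.

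Group and number of each library come from its label. All 16 libraries entered 1 fit (edgeR 4.0.16, R 4.3.3, TMM scaling, 1 coefficient per medium, quasi-likelihood test) after filterByExpr with a minimum count of 10, total of 15 and proportion of 0.7, with Benjamini-Hochberg adjustment over 17038 genes. The study's methods name no block. Deviations from group means correlated between libraries of the same number, at 0.362 to 0.552 (number 1), 0.766 to 0.831 (number 2), 0.620 to 0.671 (number 3) and 0.681 to 0.790 (number 4), whereas libraries of different numbers gave −0.830 to 0.569, so number 1 lies within the range of unlike numbers. The labels do not say what a number stands for, so this pairing rests on the data. As a block the number lowered the common dispersion from 0.132 to 0.0178. Precision is limited by the spread between 4 separate cultures per medium, as *Bace2* and *Psen2*, the least abundant of the 9 genes, still had at least 321 reads in each library.

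CPM refer to the TMM-scaled library, and log2 CPM used a prior count of 2. Lengths, positions and overlaps are from GENCODE M21 on mm10, which matched 46394 of the symbols (95.9%). Alternatives were DESeq2 1.42.0 or its size factors, other filters, fits of single pairs of media, the block, and the omission of each library. Omissions within the blocked fit were added after seeing the data. The 9 genes, the lists and the naming rule were chosen with earlier results of these data known. Under that rule all members are named, with pathway genes called in either fit (up to 4 in a list and comparison) and, where a list had no call, those with the smallest p, given here for γ-secretase only. The 3 genes closest by Pearson's r are named for 7 members and 1 for *Ncstn* and *Adam10*.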

Additional observations from a re-analysis of the deposited data

Results flagged for a closer look

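In 3 of the 36 sets of 4 libraries (9 genes in 4 media) 1 library stood apart from the other 3 by more of the range than Dixon's 95% limit allows, and chance alone does so in about 1 of 20 sets. *Bace2* in the apoE4 library of number 4 was at 72.5 CPM, with the other 3 apoE4 libraries between 24.9 and 27.0 CPM. *Adam10* in the apoE2 library of number 3 was at 61.3 CPM, with the others between 49.9 and 50.7 CPM. *Mapt* in the control library of number 1 was at 422 CPM, with the others between 557 and 572 CPM. The number 4 libraries held the most *Bace2* and the number 1 libraries the least *Mapt* in every medium, whereas number 3 held the most *Adam10* with apoE2 only.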

How the results depend on the processing

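edgeR without the block called 0 members in all 7 tests, and so did DESeq2 size factors, both other filters and DESeq2, as did fits of only the media compared in the 6 comparisons. The replicate block called 1 member for apoE3 versus control, apoE3 versus apoE2 and any difference. DESeq2 with the replicate block called 1 for apoE2 versus control, 3 for apoE3 versus control, 2 for apoE4 versus apoE2, 1 for apoE3 versus apoE2 and 2 for any difference. The blocked fit without the libraries of number 2 called 2 members for apoE3 versus control (1866 genes in all) and without those of number 3 it called 1 (777 genes). Leaving out 1 library gave 0 members without the block and, with it, 0 to 3 members for apoE3 versus control (757 to 2714 genes in all) and 0 to 1 for apoE4 versus apoE2 (366 to 940 genes), apoE3 versus apoE2 (57 to 278) and any difference (1076 to 2329). Why the block and the tools differ was not tested. Over all genes the calls for apoE2, apoE3 and apoE4 versus control were 0, 1 and 33 without the block, 25, 52 and 91 by DESeq2, 294, 1990 and 563 with the block and 702, 2638 and 927 by DESeq2 with the block. For apoE4 versus apoE3, apoE4 versus apoE2, apoE3 versus apoE2 and any difference they were 25, 43, 0 and 39, then 70, 147, 5 and 218, then 300, 757, 224 and 1823, then 680, 1189, 682 and 3072. Fits of only the media compared gave 0, 0, 0, 1, 3 and 0 in the 6 comparisons.

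The small differences turned sign in places. The log2 fold change of *App* for apoE3 versus control, 0.01, was −0.00076 with DESeq2 size factors, −0.0044 without the filter, −0.0020 with the stricter filter and −0.0055 by DESeq2 with the block. In the blocked fit without 1 number's libraries, *Bace2* for apoE2 versus control was 0.026 (number 2), *Aplp1* for apoE4 versus control 0.050 (number 4) and *Aplp2* for apoE3 versus apoE2 0.0028 (number 3) and 0.018 (number 4). Leaving out single libraries gave, for apoE2 versus control, −0.023 to 0.17 for *App*, −0.057 to 0.12 for *Bace1*, −0.48 to 0.22 for *Bace2*, −0.0062 to 0.11 for *Adam10* and −0.027 to 0.20 for *Mapt*. For apoE3 versus control it gave −0.067 to 0.11 for *App*, −0.0060 to 0.17 for *Bace1* and −0.073 to 0.12 for *Mapt*. For apoE4 versus control it gave −0.13 to 0.17 for *Aplp1*, −0.21 to 0.029 for *Aplp2*, −0.11 to 0.069 for *Bace1* and −0.092 to 0.73 for *Bace2*. For apoE4 versus apoE3 it gave −0.24 to 0.011 for *Psen2*, −0.71 to 0.24 for *Bace2* and −0.070 to 0.019 for *Adam10*. For apoE4 versus apoE2 it gave −0.12 to 0.14 for *Psen2*, −0.13 to 0.047 for *Bace1*, −0.026 to 0.91 for *Bace2* and −0.030 to 0.11 for *Adam10*. For apoE3 versus apoE2 it gave −0.14 to 0.046 for *App*, −0.33 to 0.05 for *Aplp1*, −0.088 to 0.088 for *Aplp2*, −0.029 to 0.14 for *Bace1* and −0.16 to 0.040 for *Mapt*. The other member differences that were refitted under each of these settings kept their sign, and the blocked fits without a number's libraries covered *Aplp1*, *Aplp2* and *Bace2* only. The intervals without the block allow a change of up to 3.03-fold for *Bace2* in apoE3 versus control and 3.16-fold in apoE3 versus apoE2, so the absence of a call there does not show equal levels.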
